A study of Rattus norvegicus with 24 samples.

Results

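The genes described are 7, of the 5147 that the array's annotation names, and belong to the Bcl2 and caspase families of programmed cell death, measured here in rat brain after repeated anaesthesia: the survival genes Bcl2 and Bcl2l1, the pore-forming gene Bax, the BH3-only genes Bcl2l11 and Bad, and the caspase genes Casp2 and Casp1. All probe sets whose symbol in the platform annotation is, or includes, 1 of these 7 were taken, and they were 22 of the 8799 on the array. Of the 22, 19 carry a single symbol and cover 6 genes. The other 3 list Bax together with LOC681314, a separate gene in the RefSeq table, so their signal cannot be assigned to Bax alone and they are written Bax/LOC681314. Signal was called above the floor at more than 16.5 units, the 25th percentile of all values, and 20 of the 22 probe sets were above it on at least 3 of the 24 arrays and entered the tests. The 2 left out were L14680_at of Bcl2, above the floor on 1 of 24 arrays, and AF065433_g_at of Bcl2l11, at or below it on all 24.

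RNA of whole rat brain was hybridised to 24 single-colour arrays in 5 groups. The 12 control arrays came from rats that had breathed halothane for 3 min before the brain was flushed with ice-cold saline, so the controls had met 1 of the 2 agents as well. The 4 exposed groups, with 3 arrays each, had 90 min exposures given 2 per day with 3 h of recovery, to 0.8% halothane or 1.0% isoflurane, and either 5 exposures over 2.5 days or 10 over 5 days. Strain, age and sex are not given in the sources used here, no sham-handled group is described, and nothing in the labels says that the replicates were separate animals, so the p-values speak only of how far these arrays spread, which may be technical.

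Halothane and isoflurane are volatile anaesthetics that enhance inhibitory and dampen excitatory transmission. In the mitochondrial pathway of cell death, Bax and its relatives open the outer mitochondrial membrane, Bcl2 and Bcl-xL (from Bcl2l1) hold them in check, and BH3-only proteins such as Bim (Bcl2l11) and Bad tip the balance by binding the survival proteins. Caspases are proteases made as inactive precursors: caspase 2 acts early in some forms of cell death, and caspase 1 matures interleukin-1 beta in inflammasomes. Anaesthetic exposure of the immature brain is known for setting off neuronal apoptosis. Much of the control over these proteins lies in cleavage, phosphorylation and relocation, which a transcript array does not read.

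The deposited signals had been scaled to a trimmed mean of 150.1 to 150.2 on every array, and the 24 arrays correlated at 0.93 to 0.98 on the log2 scale. Neuron, astrocyte and oligodendrocyte marker probe sets were bright on every array: the lowest sums were 7989 units over 15 neuron probe sets, 11511 over 15 astrocyte probe sets and 9878 over 12 oligodendrocyte probe sets. The arrays fell into 9 with a high and 15 with a low signal of 9 bacterial spike-in probe sets, with a gap of 0.57 on the log2 scale. The high ones were controls 1, 3, 10, 11 and 12 and replicate 3 of each exposed group. A paragraph of its own below gives the members by spike-in level.

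No probe set of the family passed the test against control in any exposed group. The numbers called were 0 of 20 after 5 halothane exposures, 0 of 20 after 10, 0 of 20 after 5 isoflurane exposures and 0 of 20 after 10, by limma with Benjamini-Hochberg adjustment at 0.05 over 7389 probe sets. Over all probe sets the same rule called 0.0135%, 0.0406%, 0% and 0%, so a call was rare anywhere on the array. In the mean of all 4 exposed groups against control, 0 of 20 were called against 0% of all probe sets, and in the F test for any difference among the 5 groups 0 of 20 against 0.0406%. The lowest adjusted p of a member was 0.382 by limma, for Bcl2l11 after 10 isoflurane exposures.

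The members' values lay somewhat lower in the exposed groups, without any single one passing the test. The log2 fold change was below 0 for 16 of 20 probe sets after 5 halothane exposures, 14 of 20 after 10, 16 of 20 after 5 isoflurane exposures and 16 of 20 after 10. Over all probe sets tested, 51.8%, 56.2%, 48.4% and 50.5% were below 0 in the same comparisons. The members' median log2 fold changes were -0.10, -0.12, -0.06 and -0.19, and those of all probe sets -0.01, -0.03, 0.01 and -0.00. The 4 comparisons share the same 12 control arrays, several probe sets report the same gene, and both make the 4 counts dependent on each other. With the replicate number as a block, a fit that in effect sets the exposed arrays against controls 1 to 3, 12, 12, 9 and 13 of 20 were below 0 and the median after 5 isoflurane exposures was 0.02. Sums of oligodendrocyte, choroid plexus, astrocyte and endothelium marker probe sets also differed between groups, with ranges that overlapped those of control. After 10 halothane exposures 12 of 12 oligodendrocyte probe sets had a log2 fold change below 0 (median -0.24), with sums of 9878 to 14459 against 11278 to 16011 in control. The sum of 11 choroid plexus probe sets was 5570 to 9531 in control, 4088 to 8196 after 5 halothane, 8604 to 13668 after 10 halothane, 8660 to 13452 after 5 isoflurane and 8850 to 11647 after 10 isoflurane exposures. The sum of 15 astrocyte probe sets was 13780 to 14555 after 10 halothane exposures against 11870 to 14128 in control, with 10 probe sets higher and 5 lower. That of 6 endothelium probe sets was 930.7 to 1016.9 after 5 isoflurane exposures against 719.5 to 1130.2 in control, with 3 higher and 3 lower. None of these marker probe sets was called, and their part in the members' values was not tested. At an unadjusted p under 0.05 by limma, the members lower than control numbered 1, 2, 2 and 3 of 20, beside 1.88%, 4.14%, 1.00% and 4.59% of all probe sets, and 5 of 20 in the mean of all exposed groups, beside 4.41%. No member was higher at that level in any of these comparisons. With spike-in level entered as a block 2 were, U49729_at of Bax/LOC681314 and U77933_at of Casp2, both far from passing after adjustment (values below). With the same block, members were also lower at that level in each of these comparisons. U14647_g_at of Casp1 had a log2 fold change of -0.44 in the mean of all exposed groups (unadjusted p = 0.00198, adjusted p = 0.196 by limma). The share of all probe sets at that level was not counted with the block. In the F test 1 of 20 had an unadjusted p under 0.05, beside 5.25% of all probe sets.

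**Figure D1:**
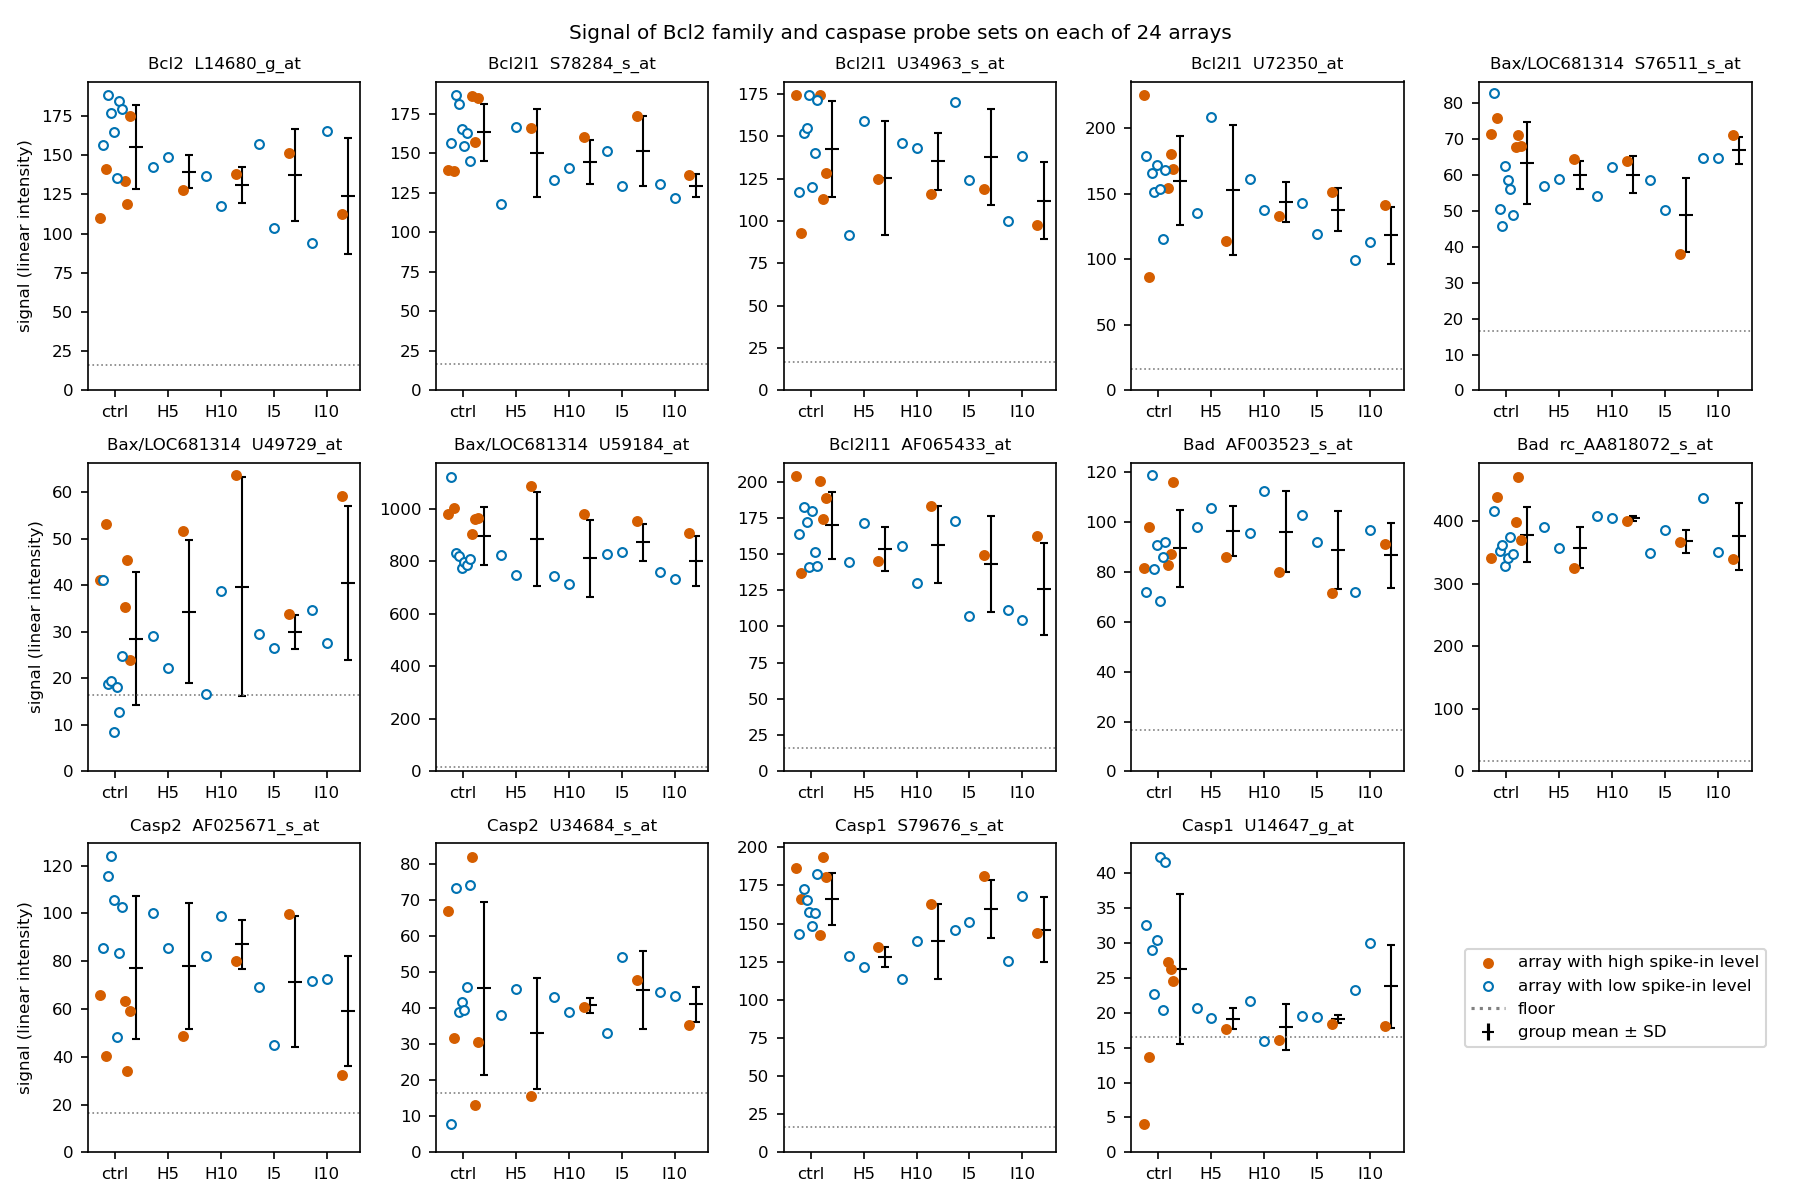
Signal of the 14 member probe sets that exceeded the floor on 20 or more of 24 arrays, 1 panel each, with the 5 groups on the x axis and the deposited signal on the y axis. Each point is 1 array, filled where the spike-in level was high; bars give the mean ± SD and the dotted line the floor of 16.5. Exposed and control arrays overlapped in nearly every panel, and the 3 arrays of Casp1 (S79676_s_at) after 5 halothane exposures and of Bcl2l1 (S78284_s_at) after 10 isoflurane exposures lay below all 12 controls.

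Bcl2 encodes the founding survival protein of the family, which sits on the outer mitochondrial membrane and on the endoplasmic reticulum. Its probe set L14680_g_at read 110.1 to 188.3 in the 12 controls, with a median of 160.5. After 5 halothane exposures it read 142.2, 148.7 and 127.6, and after 10 it read 136.6, 117.7 and 138. All 6 halothane arrays lay inside the control range, in its lower and middle part. After 5 isoflurane exposures the values were 157.2, 103.4 and 151.4, and after 10 they were 93.9, 165.1 and 112.6. In each isoflurane group 1 array fell below every control and the others lay among them.

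The group means of Bcl2 ran from 155 ± 26.8 (SD, n = 12) in control through 140 ± 10.8 after 5 halothane, 137 ± 29.5 after 5 isoflurane, 131 ± 11.3 after 10 halothane and 124 ± 36.9 after 10 isoflurane exposures (SD, n = 3 each). Neighbours in that order differed by less than the larger of their SDs. The log2 fold changes from control were -0.14, -0.18, -0.23 and -0.35 in the same order of the exposed groups. The largest of them, after 10 isoflurane exposures, had a 95% interval of -0.70 to 0.01 and an adjusted p of 0.56 by limma. The second probe set, S74122_s_at, was above the floor on 15 of 24 arrays: on 8 of 12 controls, on all 3 arrays after 5 exposures to either agent, on 0 of 3 after 10 halothane and on 1 of 3 after 10 isoflurane exposures. With highest values of 30.4 in control and 33.3 in an exposed group it stayed close to the floor throughout. Over the 24 arrays L14680_g_at read 93.9 to 188.3 and L14680_at, left out of the tests, 1.3 to 21.5. Which of the Bcl2 probe sets reflects the transcript was not tested.

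Bcl2l1 encodes the survival protein Bcl-xL and, by another splice form, a shorter death-promoting one, and neurons of the adult brain rely on the long form. Its probe set S78284_s_at read 138.7 to 187.0 in control, with a median of 160.1. After 10 isoflurane exposures it read 130.4, 121.8 and 136.4, all below the lowest control. That was 1 of the 20 member probe sets with every array below every control in this comparison, beside 0.433% of all probe sets. The mean was 130 ± 7.34 (SD, n = 3) against 163 ± 18 in control (SD, n = 12), a log2 fold change of -0.33 with an interval of -0.59 to -0.07, an unadjusted p of 0.015 and an adjusted p of 0.415 by limma.

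In the other 3 exposed groups S78284_s_at overlapped the controls. Its means were 150 ± 27.9 after 5 halothane, 145 ± 13.9 after 10 halothane and 151 ± 22.0 after 5 isoflurane exposures (SD, n = 3 each), with log2 fold changes of -0.13, -0.17 and -0.11. In the mean of all 4 exposed groups the log2 fold change was -0.18, with an unadjusted p of 0.0282 and an adjusted p of 0.524 by limma. Among the 15 low spike-in arrays alone it was -0.27, with an adjusted p of 0.355 by limma, and with the replicate number as a block it was -0.02, with an adjusted p of 0.956. That block also moved the value after 10 isoflurane exposures to -0.16, with an adjusted p of 0.622 by limma.

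The other readings of Bcl2l1 after 10 isoflurane exposures were lower too, within wide intervals. U72350_at read 99.2, 113.5 and 141.7 against 86.6 to 225.1 in control, so the groups overlapped. Its log2 fold change was -0.42, with an interval of -0.83 to -0.00 and an adjusted p of 0.548 by limma. U34963_s_at had a mean of 112 ± 22.8 (SD, n = 3) against 143 ± 28.3 in control (SD, n = 12), a log2 fold change of -0.34 with an adjusted p of 0.617 by limma. Both overlapped with control in all 4 exposed groups. U72349_at was above the floor on 5 of 24 arrays only, 3 of them controls. Over the 24 arrays the 3 brighter probe sets of Bcl2l1 correlated with each other at r of 0.37 to 0.54, a description of readings that share the same hybridisations.

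Bax encodes the protein that opens the outer mitochondrial membrane once activated. The 3 Bax/LOC681314 probe sets differed in brightness and in how they varied. U59184_at read 775.7 to 1121.8 in control, with a median of 867.8. Its group means were 887 ± 179 after 5 halothane, 812 ± 147 after 10 halothane, 874 ± 70.7 after 5 isoflurane and 801 ± 95.4 after 10 isoflurane exposures (SD, n = 3 each), against 896 ± 110 in control (SD, n = 12). These means differed by less than the spread of the controls, with log2 fold changes of -0.02, -0.15, -0.03 and -0.16. It was higher on high spike-in arrays, by 0.27 on the log2 scale. For this probe set the 95% intervals ran from 0.752-fold to 1.17-fold of control over the 4 comparisons.

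S76511_s_at was the Bax/LOC681314 probe set that differed most between the isoflurane courses. After 5 isoflurane exposures it read 58.5, 50.2 and 38, and after 10 it read 64.8, 64.6 and 71.2. The 2 courses did not overlap, and the controls, at 45.8 to 82.7, overlapped with both. Between these courses 2 of 20 member probe sets did not overlap, this one and AF065432_s_at of Bcl2l11, beside 7.58% of all probe sets. The log2 fold change between the courses was 0.47 (interval 0.01 to 0.93, unadjusted p = 0.0437, adjusted p = 1 by limma), and that of the short course from control was -0.37 (unadjusted p = 0.0444, adjusted p = 1). The size of the difference from control hung on single arrays and on the fit: it was -0.20 to -0.51 with 1 array left out, -0.07 among low spike-in arrays alone, -0.36 when spike-in level was a block and -0.67 when the replicate number was. In control this probe set averaged 70.8 on high and 57.9 on low spike-in arrays. U49729_at had group means of 28.5 in control and 30.0 to 40.4 in the exposed groups, and its log2 fold changes of 0.14 to 0.50 were within intervals that all held 0. It was higher on high spike-in arrays, by 0.88 on the log2 scale. With that level as a block the log2 fold change was 0.58 after 10 isoflurane exposures (unadjusted p = 0.0421, adjusted p = 0.406 by limma) and 0.38 in the mean of all exposed groups (unadjusted p = 0.0336, adjusted p = 0.409).

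Bcl2l11 encodes Bim, a BH3-only protein made and stabilised when neurons lose trophic support. The probe set AF065433_at read 136.6 to 203.8 in control, with a median of 173.5. After 10 isoflurane exposures it read 111.2, 104.3 and 162.6. The first 2 of these lay below every control, and the third lay inside their range and came from the high spike-in array of that group. The mean was 126 ± 31.9 (SD, n = 3) against 170 ± 23 in control (SD, n = 12). The log2 fold change was -0.45 with an interval of -0.77 to -0.12, an unadjusted p of 0.009 and an adjusted p of 0.382 by limma. Among low spike-in arrays alone it was -0.58, with an adjusted p of 0.266 by limma. The probe sets of Bcl2l11 differed widely in brightness. Over the 24 arrays AF065433_at read 104.3 to 203.8 and AF065433_g_at, left out of the tests, 0.5 to 11.1. AF065431_s_at read 6.3 to 53.5 and AF065432_s_at 7.3 to 58.7. Which of these probe sets reflects the Bcl2l11 transcript was not tested.

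The other groups of AF065433_at were 143 ± 33.3 after 5 isoflurane, 154 ± 15.1 after 5 halothane and 156 ± 26.6 after 10 halothane exposures (SD, n = 3 each), all overlapping with control. In order from the lowest, the groups were 10 isoflurane, 5 isoflurane, 5 halothane, 10 halothane and control, with neighbours closer than their spread. The probe set AF065432_s_at read 9.2, 14.7 and 10.0 after 5 isoflurane exposures, all at or below the floor. Controls of that probe set ranged from 7.3 to 58.7, 3 of 12 of them at or below the floor. On the floored log2 scale the difference was -0.86, with an unadjusted p of 0.0367 and an adjusted p of 1 by limma. The probe set AF065431_s_at was above the floor on 11 of 24 arrays, none of them a high spike-in array, and overlapped with control in every exposed group.

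Bad encodes a BH3-only protein that growth-factor signalling holds inactive by phosphorylation. Its probe set rc_AA818072_s_at had the narrowest intervals of the 20. It read 328.4 to 470.6 in control, with a median of 365.0. After 10 halothane exposures it read 408.5, 404.1 and 400.4, inside the control range, and the means of the 4 exposed groups ran from 357 to 404 against 378 ± 43.9 in control (SD, n = 12). The 95% intervals of all 4 comparisons lay between 0.819-fold and 1.24-fold of control. The second probe set, AF003523_s_at, had means of 86.7 to 96.5 in the exposed groups against 89.5 ± 15.4 in control (SD, n = 12). The pair did not move together over the 24 arrays, with r of -0.10.

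Casp2 encodes caspase 2, an initiator caspase abundant in the developing brain. AF025671_s_at had the largest spread of the 11 member probe sets above the floor on every array, with a coefficient of variation of 34.3% over the 24 arrays. It read 34.2 to 123.9 in control, with a median of 74.6 and a mean of 77.3 ± 30.0 (SD, n = 12). The exposed means were 78.0 ± 26.4 after 5 halothane, 87.1 ± 10.3 after 10 halothane, 71.4 ± 27.5 after 5 isoflurane and 59.0 ± 23 after 10 isoflurane exposures (SD, n = 3 each), and every exposed group overlapped with control. The 95% intervals reached from 0.468-fold to 2.00-fold. The probe set was lower on high spike-in arrays, with a log2 difference of -0.61. U34684_s_at overlapped likewise, with means of 33.0 to 45.0 against 45.5 ± 24 in control (SD, n = 12).

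U77933_at gave the widest log2 fold changes of the family, from -0.33 after 5 halothane to 0.93 after 5 isoflurane exposures, with intervals that all held 0. After 5 halothane exposures it read 58.6, 14.1 and 13.5, and after 10 it read 89.2, 89.5 and 16.2. After 5 isoflurane exposures it read 80.3, 71.6 and 38.4, and after 10 it read 73.9, 41.7 and 37.6. Controls ranged from 13.2 to 90 with a median of 28.4, and in every exposed group the lowest value belonged to replicate 3, the high spike-in array. Halothane against isoflurane at 5 exposures gave a log2 fold change of -1.26 with an interval of -2.62 to 0.09, an unadjusted p of 0.0663 and an adjusted p of 1 by limma. The probe set was at or below the floor on 5 of 24 arrays, and it was lower on high spike-in arrays, with a log2 difference of -1.06. With that level as a block the log2 fold change after 5 isoflurane exposures was 0.84 (unadjusted p = 0.047, adjusted p = 1 by limma). Every exposed group has 1 high spike-in array among its 3, so the block cannot change a difference between exposed groups. Halothane against isoflurane at 5 exposures was thus -1.26 again, with only the error changed (unadjusted p = 0.0207, adjusted p = 1 by limma).

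Casp1 encodes caspase 1, which in brain is found chiefly in microglia and serves inflammation more than apoptosis. Its probe set S79676_s_at had the lowest F test p of the family, an unadjusted 0.0312 with an adjusted p of 0.879 by limma. In control it read 142.6 to 193.6, with a median of 165.9. After 5 halothane exposures it read 128.4, 121.7 and 134.7. All 3 lay below every control, and this was 1 of 20 member probe sets to do so in that comparison, beside 0.230% of all probe sets. After 10 halothane exposures and after 5 isoflurane exposures no member did, beside 0.528% and 0.0947% of all probe sets.

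After 10 halothane exposures S79676_s_at read 113.5, 138.8 and 162.7, after 5 isoflurane exposures 146.0, 150.9 and 181.4, and after 10 isoflurane exposures 125.5, 168.2 and 144.1. In each of these groups at least 1 array lay inside the control range. The mean after 5 halothane exposures was 128 ± 6.50 (SD, n = 3) against 166 ± 17.1 in control (SD, n = 12), a log2 fold change of -0.37 with an interval of -0.62 to -0.12. Its unadjusted p was 0.00584 and its adjusted p 1 by limma. The other log2 fold changes were -0.27 after 10 halothane, -0.06 after 5 isoflurane and -0.19 after 10 isoflurane exposures. In the mean of all 4 exposed groups it was -0.22, with an unadjusted p of 0.00783 and an adjusted p of 0.403 by limma, and among low spike-in arrays alone -0.24, with an adjusted p of 0.382.

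The second Casp1 probe set was dimmer. U14647_g_at was above the floor on 20 of 24 arrays, with a control mean of 26.2 ± 10.7 (SD, n = 12) and exposed means of 17.9 to 23.8. Its log2 fold change was -0.54 after 10 halothane exposures, with an adjusted p of 0.618 by limma, and -0.41 in the mean of all exposed groups, with an adjusted p of 0.429. With the replicate number as a block these were -0.19 and -0.06, with adjusted p of 0.764 and 0.893 by limma. It was lower on high spike-in arrays, with a log2 difference of -0.37. Over the 24 arrays the 2 probe sets correlated at r of 0.18, at 0.51 among the 15 low and at 0.12 among the 9 high spike-in arrays. U14647_at was above the floor on 8 of 24 arrays. The sum of 12 microglia and macrophage probe sets was 758.6 to 918.9 in control, 804.9 to 932.0 after 5 halothane, 732.5 to 978.4 after 10 halothane, 766.0 to 833.6 after 5 isoflurane and 692.8 to 874.0 after 10 isoflurane exposures, and 0 of the 12 were called in any of these comparisons. In whole tissue fewer cells of a type and less RNA per cell cannot be told apart.

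**Figure D2:**
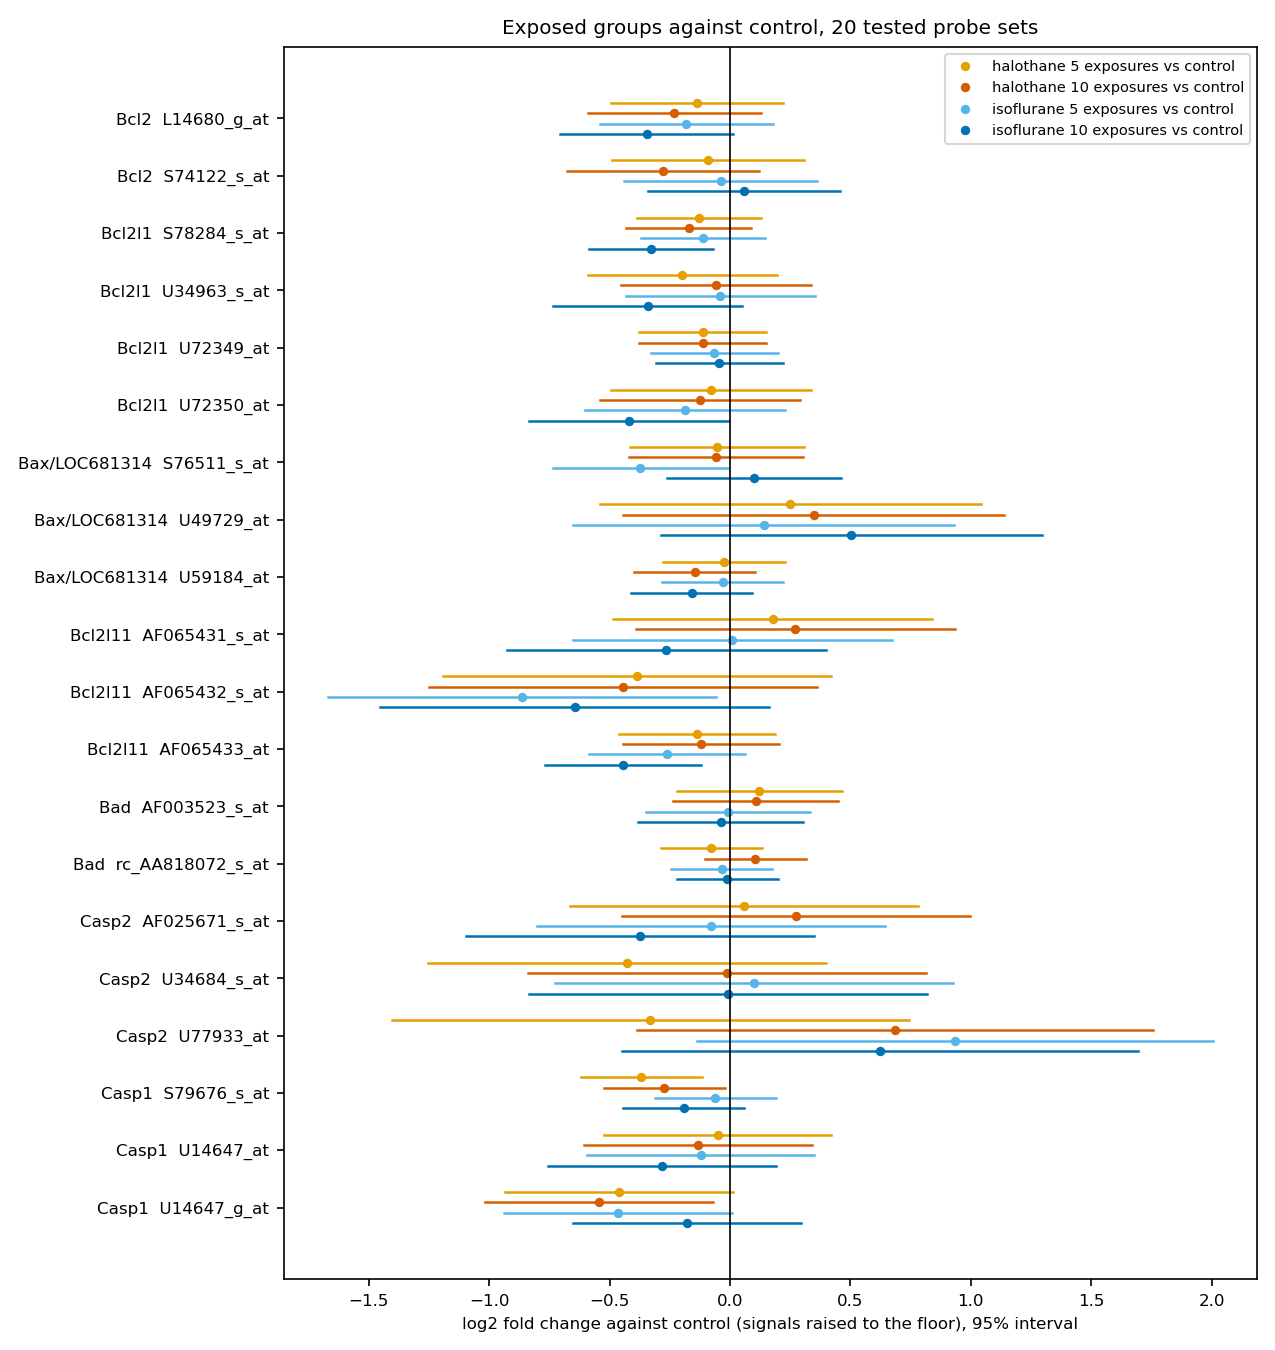
Log2 fold change from control (x axis) of the 20 tested member probe sets (y axis) in the 4 exposed groups (1 colour each), with 95% intervals from limma. Most intervals cross 0, and none of the 80 differences had an adjusted p under 0.05.

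The precision differed widely within the family. Of the 80 intervals against control, 66 lay wholly between 0.5-fold and 2-fold. Of the 11 probe sets above the floor on all 24 arrays, 10 had their intervals within those bounds in all 4 comparisons, and Casp2 AF025671_s_at was the exception. For dim probe sets the floor raises the lowest values, so their fold changes may be smaller or larger than without it. For Casp1 U14647_g_at it raised control values of 4 and 13.6, and values of 16 and 16.1 after 10 halothane exposures.

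The 2 agents were compared at matched numbers of exposures. Halothane against isoflurane called 0 of 20 member probe sets at 5 exposures, beside 0.0135% of all probe sets, and 0 of 20 at 10 exposures, beside 0%. At an unadjusted p under 0.05 by limma the counts were 0 of 20 in both, beside 2.98% and 3.11%. For Casp1 S79676_s_at the log2 difference of halothane from isoflurane was -0.31 at 5 exposures (interval -0.63 to 0.01) and -0.08 at 10 (interval -0.40 to 0.24). For Bcl2l11 AF065433_at it was 0.13 (interval -0.28 to 0.54) and 0.33 (interval -0.08 to 0.74). Groups did not overlap for 1 of 20 at 5 exposures, Casp1 S79676_s_at, beside 9.50% of all probe sets, and for 2 of 20 at 10, Bax/LOC681314 S76511_s_at and Casp2 AF025671_s_at, beside 6.24%. The intervals above still hold differences of the size seen against control, so the agents were not shown to act alike.

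The length of the course gave the same picture. The comparison of 10 with 5 halothane exposures called 0 of 20, beside 0.0135% of all probe sets, with 0 of 20 at an unadjusted p under 0.05, beside 3.76%. These groups did not overlap for 2 of 20, Bcl2 S74122_s_at and Bad rc_AA818072_s_at, beside 8.42%. For isoflurane 0 of 20 were called, beside 0%, and 1 of 20 had an unadjusted p under 0.05, beside 3.00%, which was the Bax/LOC681314 probe set S76511_s_at described above. The interaction of agent and number of exposures called 0 of 20, beside 0%, with 0 of 20 at an unadjusted p under 0.05, beside 2.00%.

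The spike-in level went with differences across the whole array, and several members were among the probe sets that differed. Comparing the 9 high with the 15 low arrays by limma, 6 of 20 member probe sets were called, 2 higher and 4 lower, beside 7.67% of all probe sets higher and 12.3% lower. The comparison was added after the values were seen, and the 5 groups were kept in its model. Higher on high spike-in arrays were the Bax/LOC681314 probe sets U49729_at, at 45.3 ± 12.9 against 24.5 ± 9.28 (SD, n = 9 and n = 15, log2 difference 0.88, adjusted p = 0.00103 by limma), and U59184_at, at 972 ± 54.5 against 809 ± 95.3 (0.27, adjusted p = 0.00216). Lower were Casp2 U77933_at, at 24.2 ± 9.35 against 56.3 ± 26.6 (-1.06, adjusted p = 0.0062), and Casp2 AF025671_s_at, at 58.2 ± 22.2 against 86.1 ± 22.5 (-0.61, adjusted p = 0.0269).

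Bcl2l11 AF065431_s_at was lower as well, at 7.83 against 25.7 and thus below the floor on every high array, with a floored log2 difference of -0.60 and an adjusted p of 0.0159 by limma. Casp1 U14647_g_at had a log2 difference of -0.37 and an adjusted p of 0.0481, and it lost the call in most of the fits with 1 array left out. Within the control arrays alone, 5 high against 7 low, 0 members were called by limma, and 298 of 7117 probe sets were called in all. The 3 probe sets with the lowest p in the comparisons of a single exposed group with control were Casp1 S79676_s_at, Bcl2l11 AF065433_at and Bcl2l1 S78284_s_at. They had log2 differences of 0.15, 0.20 and 0.09 with the spike-in level (unadjusted p = 0.0571, 0.0474 and 0.283 by limma) and were not called. In other settings of that comparison Casp1 S79676_s_at was called in 2 of 9, and in 0 of 24 fits with 1 array left out. The part of the spike-in level in the differences between exposed and control arrays was not tested beyond the fits on low arrays and with the level as a block.

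**Figure D3:**
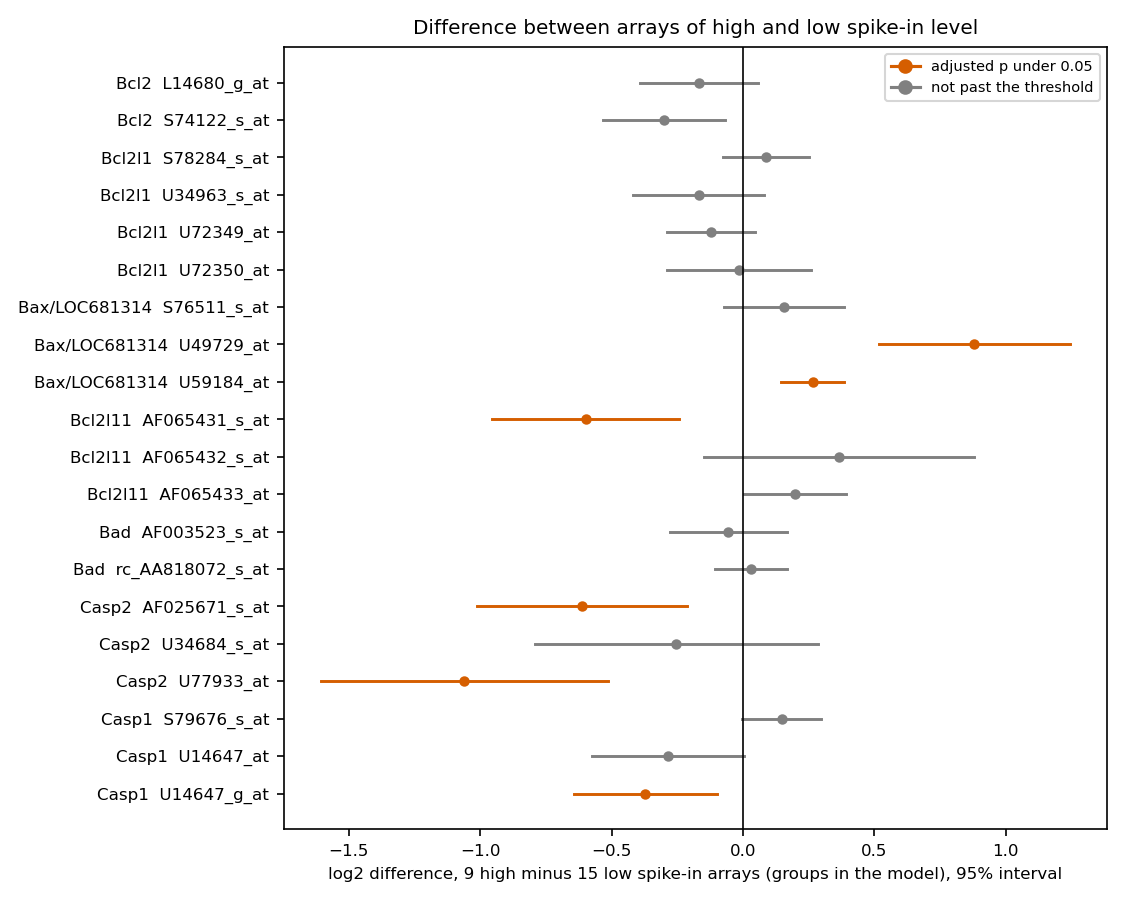
Log2 difference of the 9 high from the 15 low spike-in arrays (x axis) for the 20 tested member probe sets, with 95% intervals from limma. The 2 called higher are Bax/LOC681314 probe sets, and the 4 called lower belong to Casp2 (2), Bcl2l11 and Casp1.

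Other genes of the pathway were read from 6 lists of 84 distinct genes: other caspases and their partners, other Bcl2 family genes, death receptors, DNA damage response genes, upstream regulators of Bcl2 proteins, and the inflammasome with interleukin-1. Of the 84, 43 had a probe set of their own and 38 were tested, with 67 probe sets. The lists held 5, 10, 5, 10, 27 and 10 tested probe sets, in that order. None of the 67 was called by limma in any of the 10 comparisons or in the F test, where the lowest adjusted p was 0.749 and 7 of 67 had an unadjusted p under 0.05, beside 5.25% of all probe sets. In the mean of all exposed groups 10 of 67 had an unadjusted p under 0.05, beside 8.44% of all probe sets, 7 higher and 3 lower than control. The median log2 fold change of the 67 was -0.06, beside -0.09 for the members and -0.01 for all probe sets.

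Hrk, a neuronal BH3-only gene that binds Bcl2 and Bcl-xL, had the lowest F test p of the other Bcl2 family genes. Its mean was 109 ± 15.9 after 10 isoflurane exposures (SD, n = 3) against 73.2 ± 12.8 in control (SD, n = 12), a log2 fold change of 0.59 that did not pass the adjusted test by limma. Bnip3l, which encodes a mitochondrial BH3-like protein of mitophagy, had log2 fold changes of 0.14 and 0.26 after 5 and 10 halothane exposures and 0.02 and 0.31 after 5 and 10 isoflurane exposures. Bid, whose protein links death receptors to mitochondria, had log2 fold changes from -0.09 after 10 halothane to 0.63 after 5 isoflurane exposures.

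In the other 5 lists too the 3 probe sets with the lowest F test p missed the threshold after adjustment by limma. Among caspase partners these were Aifm1, which encodes a mitochondrial flavoprotein released in cell death, with log2 fold changes of 0.17 to 0.34, and both probe sets of the DNA repair gene Parp1. Among death receptors they were 2 probe sets of the neurotrophin receptor gene Ngfr, with -0.48 and -0.39 after 10 isoflurane exposures, and Tnfrsf1a, the receptor gene of tumour necrosis factor, with -1.04 after 10 halothane and 0.57 after 5 halothane exposures. Among DNA damage response genes they were Ccng1 and 2 probe sets of the ubiquitin ligase gene Mdm2. Among upstream regulators they were 2 probe sets of the transcription factor gene Jun, with 0.65 and 0.35 after 5 halothane exposures, and Akt2. In the inflammasome list they were Il1rap, Il1a and Il1r1, which encode the co-receptor, a ligand and the receptor of interleukin-1, with -0.72 for Il1rap after 5 isoflurane exposures.

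**Figure D4:**
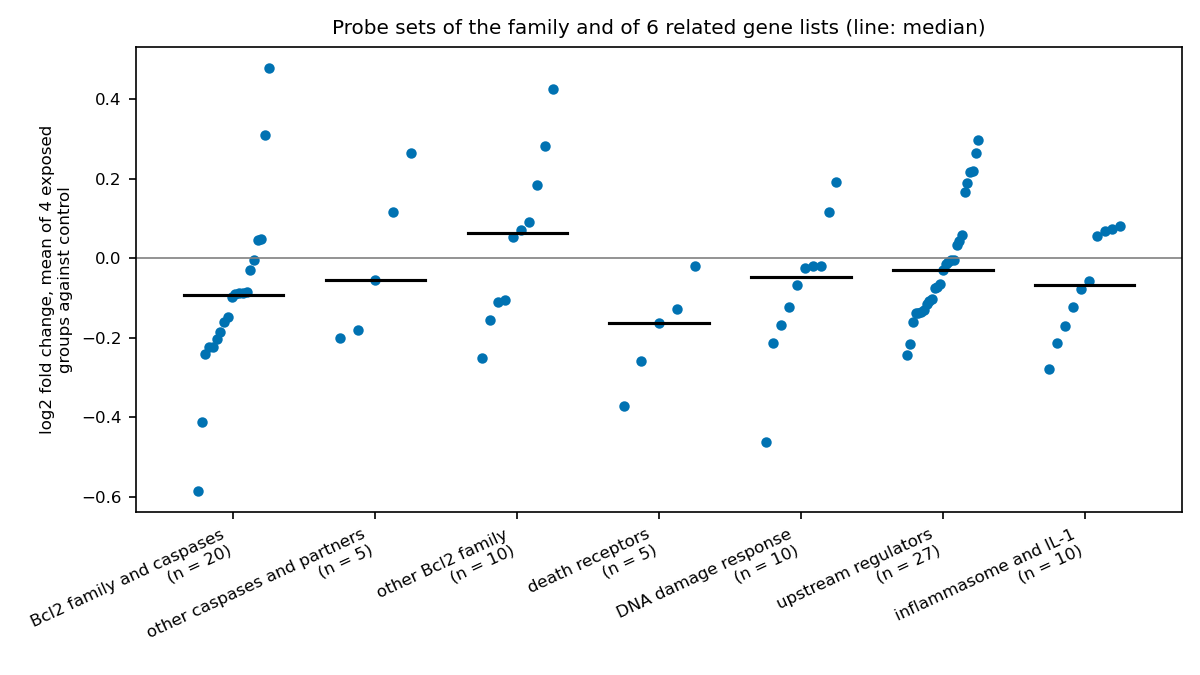
Log2 fold change of the mean of all 4 exposed groups from control (y axis) for each tested probe set of the members and of the 6 pathway lists (x axis), with a line at each median. The points lie on both sides of 0 in every column but the death receptors, where 5 of 5 lie below it, and none had an adjusted p under 0.05 by limma.

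The genes whose signal varied most like each member but Bax were found by Pearson's r of log2 signal over the 24 arrays. The member's brightest probe set was set against 3667 to 3669 single-gene probe sets with a mean signal above the table median of 58.9. All values of an array share its hybridisation, scaling and spike-in level, so these correlations are descriptions. Bcl2 was closest to Ralgds, at r of 0.85 (0.84 among low and 0.87 among high spike-in arrays), and Drd5, at 0.82. Casp1 was closest to Cxcl6, at 0.72 (0.76 and 0.77), and Rbpms, at 0.69. Bcl2l1 was closest to Gja5, at 0.74 (0.78 and 0.82), and Dpm2, at 0.73. Bcl2l11 was closest to Hspb1, at 0.71 (0.85 among low and 0.28 among high arrays), and Serpina3n, at 0.69. Casp2 was closest to Nr3c2, at 0.70 (0.41 and 0.65), and Sorbs2, at 0.69 (0.44 and 0.70). Bad was closest to Bckdhb, at 0.66 (0.44 and 0.81), and Atp5po, at 0.63.

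The 4 tested blood probe sets (Hbb, Hbb-b1, Alas2 and S100a9), which track residual blood, summed to 389.7 to 845.8 in control, 304.8 to 850.5 after 5 halothane, 281.4 to 306.5 after 10 halothane, 469.4 to 526.6 after 5 isoflurane and 270.6 to 453.2 after 10 isoflurane exposures. All 3 arrays after 10 halothane exposures lay below every control. The log2 fold change was below 0 for 4 of 4 after 10 exposures to either agent (median -0.70 for halothane and -0.63 for isoflurane). In each, 3 of 4 were lower at an unadjusted p under 0.05 by limma, beside 4.14% and 4.59% of all probe sets. After 5 exposures 4 of 4 were below 0 for halothane (median -0.22) and 3 of 4 for isoflurane (median -0.13). None of the 4 was called. The part of residual blood in the members' values was not tested.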

How the data were processed

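RNA of whole rat brain was measured on 24 single-colour arrays, 12 control and 3 in each of 4 exposed groups. The deposited table gives the authors' signal intensity on a linear scale for 8799 probe sets. The sources used here do not give how the probes were summarised and scaled, and detection calls were not used. The deposited scaling was kept, since the trimmed mean (2% from each end) was 150.1 to 150.2 on every array. Values were floored at 16.5, the 25th percentile, and log2 taken. Left out were 59 control probe sets and those that exceeded the floor on fewer than 3 arrays, and 7389 were tested. Arrays were grouped by the labels. All 5 groups entered 1 limma fit (limma 3.58.1, R 4.3.3; eBayes with trend) without covariates, with 10 contrasts and an F test, and p-values were adjusted by Benjamini-Hochberg over all 7389; the script was checked on simulated data. For arrays, their number limits the precision.

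The members and gene lists were chosen with earlier results of these data known. Named are all single-symbol member probe sets, the 3 lowest F test p of each list and, for each member but Bax, the 2 most correlated probe sets. The Bax/LOC681314 probe sets fall outside that rule, which only counts them, and their values were given after they were seen. Gene names came from the platform annotation, and of 7018 single-gene probe sets 6994 matched the RefSeq table. Alternatives were other floors, filters, scalings, array weights, the spike-in level or the replicate number as a block, leaving out arrays, and a comparison of spike-in levels that was added later.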

Additional observations from a re-analysis of the deposited data

How the results depend on the processing

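Under 13 other settings and 24 fits that each lacked 1 array, 406 refitted comparisons called 0 member probe sets, and the lowest adjusted p of a member was 0.125 by limma. The number of members called in the 10 comparisons and the F test was 0 in every fit with 1 array left out. The 14 log2 fold changes of members with an unadjusted p under 0.05 kept their direction in each of these fits that tested them, while 116 of the 186 others changed sign in at least 1. Over all probe sets the counts called were few and unstable: 3 after 10 halothane exposures became 1 to 33 in other settings, and 0 in the mean of all exposed groups became 0 to 27. The F test was not run with only the groups of a comparison in the fit, and with the strict filter 11 members were left.

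Same-numbered arrays of different groups had residual correlations of 0.087 to 0.52 among the exposed groups and -0.18 to 0.31 with control, and differently numbered ones -0.37 to 0.21. The labels tie the numbers to no animal or batch, not every pair was above 0.1, and replicate 3 of each exposed group shares the high spike-in level, so the block is given as an alternative only. With the replicate number as a block, 0 members were called. Casp1 S79676_s_at after 5 halothane exposures differed by -0.36 on the log2 scale (adjusted p = 0.429 by limma), and Bcl2l1 S78284_s_at after 10 isoflurane exposures -0.16 (adjusted p = 0.622).

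For the spike-in level, 6 members called became 0 with control arrays only, where the lowest adjusted p was 0.0632 by limma. With 1 array left out the count was 4 to 7. Casp1 U14647_g_at was called in 7 of 24 such fits and Casp2 AF025671_s_at in 20 of 24. Signals near the floor limit what several probe sets can show.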
